A study of Mus musculus with 6 samples.

Results

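The genes described here are 8 myelin genes of Schwann cells, Pmp22, Mbp, Prx, Mag, Egr2, Cnp, Ncmap and Mal, chosen by symbol from a deposited table of 17524 genes. The table holds messenger RNA profiles of the trigeminal ganglion, the sensory ganglion of the face and meninges, from wild-type mice in 2 groups, vehicle (3 libraries) and NTG (3 libraries). NTG is not spelled out in the labels and commonly stands for nitroglycerin in mouse migraine work. The labels used here name no strain, age, sex, dose or time after treatment. They do not say whether a library is 1 animal or a pool, and p-values therefore reflect only how far these libraries scatter, which may be technical. The reads counted to the genes of the table numbered 18813027 to 23774244 in each library.

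Schwann cells wrap the larger axons of peripheral nerves and ganglia in myelin, a stack of membrane sealed by adhesive and basic proteins, with cytoplasm-filled channels at its edges. The transcription factor EGR2 switches the myelin genes on together with SOX10, which marks the whole Schwann lineage. Oligodendrocytes make the myelin of the brain and of the central end of the trigeminal root, and share Mbp, Mag, Cnp and Mal with Schwann cells, whereas Prx and Ncmap belong to peripheral myelin. In bulk tissue, fewer cells of a type and less RNA per cell cannot be told apart.

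The ganglion libraries carried the peripheral myelin program at a high level. The 8 genes together took 0.911% to 1.01% of all reads counted to genes. The share was 0.911%, 0.953% and 1.01% in the vehicle libraries and 0.918%, 0.977% and 0.981% in the NTG libraries, so the groups overlapped in this total. Neuron markers were abundant in all libraries (10 genes summing to 20160.5 to 22015 CPM, reads scaled to a common library total), and skeletal muscle markers were rare, with 8 genes summing to 8.03 to 15.4 CPM in vehicle and 3.32 to 3.52 CPM in NTG. Their part in the results was not tested.

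Levels between genes were compared per kilobase of transcript, as normalised reads divided by the median length of a gene's transcripts. In vehicle, Mbp stood highest at 51725 ± 1962 normalised reads per kilobase, followed by Pmp22 (33041 ± 2542) and then, well below, by Prx (6622 ± 584) and Cnp (5177 ± 203; SD, n = 3 each). Mal (3576 ± 246), Ncmap (2185 ± 239.8) and Mag (1239 ± 164) came next, and Egr2, a transcription factor rather than a structural protein, was lowest at 314 ± 78.1. The order was the same in NTG, and each neighbouring pair stood apart by more than its SDs in both groups. The order was also the same with the length of each gene's principal transcript, but Mal (2101 ± 144) and Ncmap (1960.1 ± 215) then lay within their SDs of each other in vehicle, and likewise in NTG (2267 ± 233 and 2149.7 ± 178). Mbp gives many transcripts, from short ones to the long golli forms, and its level per kilobase came to 156838 ± 5949 in vehicle with the short principal transcript.

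Between the groups the 8 genes did not move as a block. Pmp22 rose in NTG, Mag and Mbp fell, and the other 5 did not pass the test, which was limma-trend on log2(value + 1) with an adjusted p under 0.05 over all 17475 genes tested. Of those genes 25.8% passed, 12.3% upwards and 13.5% downwards, so 1 rise and 2 falls among 8 genes are near the share found in genes at large. The median log2 fold change of the 8 was 0.07, against 0.00 over all genes tested. The 3 values of each group did not overlap in 2 of the 8, Mag and Mbp, against 39.7% of all genes tested.

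**Figure D1:**
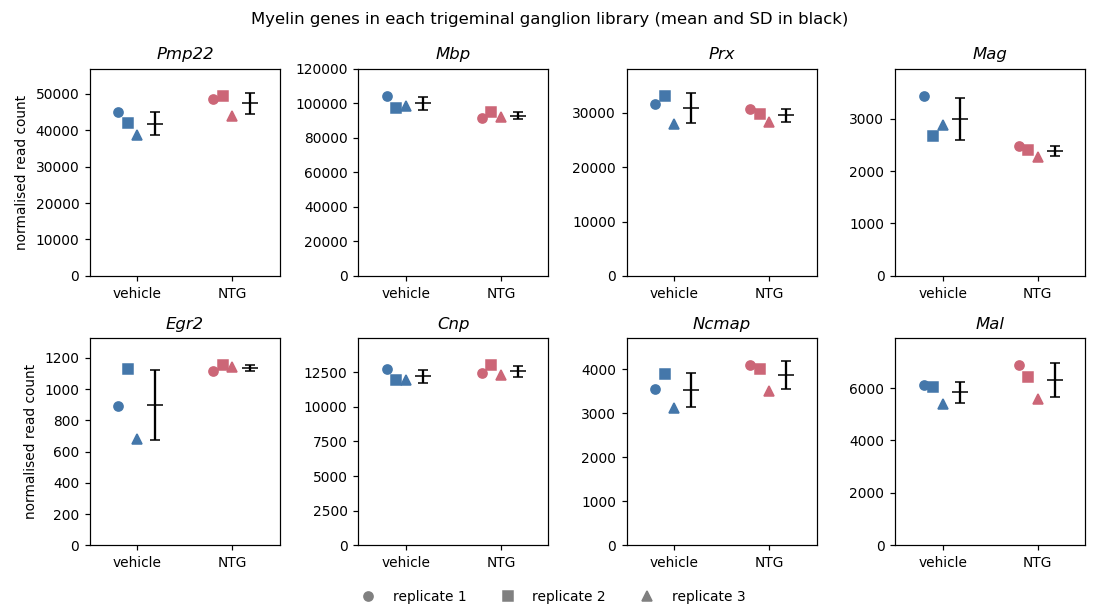
Normalised read counts of the 8 myelin genes in each library (y axis from 0, own scale per gene), with vehicle in blue, NTG in red, a marker for each replicate number, and the mean with SD in black. Mag and Mbp are the genes whose groups do not overlap; Egr2 spreads from 681 to 1128 in vehicle and lies within 1115 to 1153 in NTG.

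Among the proteins of compact myelin, PMP22 is a small membrane protein whose gene dose is tightly set, since its duplication causes a human demyelinating neuropathy. Pmp22 (chromosome 11, 63128982 to 63159547, plus strand, GRCm38) was counted at 45006, 41962 and 38570 normalised reads in vehicle and at 48646, 49512 and 44041 in NTG. NTG replicates 1 and 2 lay above every vehicle library, and NTG replicate 3 fell below vehicle replicate 1. The change on the log2 scale was 0.18 ± 0.05 (SE, adjusted p by limma = 0.0226). The rise did not pass without vehicle replicate 2 (limma adjusted p = 0.0666), vehicle replicate 3 (0.125), NTG replicate 1 (0.125) or NTG replicate 2 (0.106).

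Myelin basic protein draws the cytoplasmic faces of the membrane together. Mbp (chromosome 18, 82475091 to 82585637, plus strand) was the most abundant of the 8, with 104396, 97333 and 98458 normalised reads in vehicle against 91139, 95060 and 92195 in NTG. Every NTG library lay below every vehicle library, but by little, with a log2 fold change of -0.11 ± 0.04 (SE, adjusted p by limma = 0.0391). This call was lost whichever library was left out, with limma adjusted p of 0.162 without vehicle replicate 1, 0.0600 without vehicle replicate 2, 0.0825 without vehicle replicate 3, 0.0820 without NTG replicate 1, 0.0630 without NTG replicate 2 and 0.0722 without NTG replicate 3. By edgeR's quasi-likelihood test on recovered whole reads its adjusted p was 0.0575, whereas Pmp22 (0.0225) and Mag (0.00716) passed. By that test 25.5% of genes passed, 12.5% upwards and 13% downwards.

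MAL is a proteolipid of myelin and of lipid-raft membrane traffic. Mal (chromosome 2, 127633226 to 127656695, minus strand) stood at 6105, 6029 and 5376 normalised reads in vehicle and 6875, 6417 and 5599.9 in NTG. NTG replicates 1 and 2 were above all vehicle libraries and NTG replicate 3 was inside their range. The change on the log2 scale was 0.11 ± 0.07 (SE, adjusted p by limma = 0.285). It passed without NTG replicate 3 (0.19, limma adjusted p = 0.0308).

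On the inner, axon-facing membrane, myelin-associated glycoprotein binds the axon. Mag (chromosome 7, 30899175 to 30914922, minus strand) showed the clearest change of the 8 in the deposited values. It had 3441, 2674 and 2876 normalised reads in vehicle and 2470, 2411 and 2268 in NTG. The NTG libraries were close together and all below the vehicle libraries, of which vehicle replicate 1 stood highest. Mag fell by 0.32 ± 0.08 on the log2 scale (SE, adjusted p by limma = 0.00428), which is 20.1% lower. It passed with each library left out in turn, with limma adjusted p from 0.00262 to 0.0200 and the smallest change, -0.22, without vehicle replicate 1. It did not pass against a minimum fold of 1.2, and neither did any other of the 8. Nor did Mag pass once trends over GC content and length were removed, as described below (-0.09, limma adjusted p = 0.715).

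Cytoplasmic and edge proteins of the sheath did not pass. CNP, an enzyme of the cytoplasmic channels, keeps those channels open. Cnp (chromosome 11, 100574909 to 100591875, plus strand) stood at 12755, 11921 and 11928 normalised reads in vehicle and 12412, 13012 and 12267 in NTG, overlapping ranges with a log2 fold change of 0.04 ± 0.05 (SE, adjusted p by limma = 0.559). Its locus overlaps Dnajc7 on the opposite strand over 9058 bases, and Dnajc7, listed at 23.2% of the level of Cnp, rose by 0.29 ± 0.06 on the log2 scale (SE, adjusted p by limma = 0.000611). The libraries were strand-specific, but whether counting used the strand is not given in the sources used here, so reads of the pair may not be separated.

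Periaxin links the sheath's outer membrane to the basal lamina through a complex with dystroglycan and DRP2. Prx (chromosome 7, 27499305 to 27520041, plus strand) was counted at 31661, 33198 and 27899.5 normalised reads in vehicle and 30693, 29736 and 28288 in NTG. The NTG values lay within the vehicle range, and the change on the log2 scale was -0.06 ± 0.05 (SE, adjusted p by limma = 0.451). Drp2, its partner gene, rose from 11893 ± 713 to 13749.9 ± 1263 normalised reads with overlapping groups (0.21 ± 0.06 on the log2 scale, adjusted p = 0.0198 by limma). Ncmap (chromosome 4, 135369576 to 135398240, minus strand), which encodes a small membrane protein of non-compact myelin, stood at 3560.0, 3902 and 3129 in vehicle and 4098, 4012 and 3504 in NTG. Its groups overlapped through NTG replicate 3, with a log2 fold change of 0.14 ± 0.08 (SE, adjusted p by limma = 0.219).

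EGR2 is the zinc finger transcription factor that starts and maintains peripheral myelination. Egr2 (chromosome 10, 67534469 to 67542188, plus strand) was the least even of the 8 in vehicle, with 892, 1128 and 681 normalised reads, and close together in NTG, with 1115, 1153 and 1143. NTG replicates 2 and 3 lay above all vehicle libraries, and NTG replicate 1 just below vehicle replicate 2. Its log2 fold change of 0.37 ± 0.17 (SE) was the largest of the 8 and did not pass (limma adjusted p = 0.159). Without vehicle replicate 2 it passed, with 0.54 and limma adjusted p = 0.00196. Egr1, a relative of Egr2 that neurons and glia induce within minutes of stimulation, fell instead, from 377 ± 30.3 to 237 ± 23.1 normalised reads (-0.67 ± 0.12 on the log2 scale, adjusted p = 0.000302 by limma).

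To show the DNA beside the counts, the 250 bases before the start site are given for the gene that rose, the gene that fell most clearly, the regulator, and both genes with a match among those left. They are RefSeq promoters on GRCm38.p6, read 5′ to 3′ on the gene's strand, where 7 of the 8 genes matched a promoter entry (all but Mbp). Capitals mark matches on either strand to 3 motifs. The EGR core was searched as GCGTGGG and its shifted form GTGGGCG. The SOX motif was searched as ACAAAG, besides its variant ACAATG, besides a further variant AACAAT. The last is the CArG box bound by serum response factor. The windows are chr11:63128732-63128981 (Pmp22, plus strand), chr7:30914864-30915113 (Mag, minus), chr10:67537619-67537868 (Egr2, plus), chr7:27499074-27499323 (Prx, plus) and chr11:100574689-100574938 (Cnp, plus).
Pmp22: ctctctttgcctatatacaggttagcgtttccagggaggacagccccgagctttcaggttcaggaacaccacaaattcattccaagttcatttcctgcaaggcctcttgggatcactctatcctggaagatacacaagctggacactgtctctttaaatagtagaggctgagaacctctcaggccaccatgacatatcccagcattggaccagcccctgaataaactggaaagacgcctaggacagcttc
Mag: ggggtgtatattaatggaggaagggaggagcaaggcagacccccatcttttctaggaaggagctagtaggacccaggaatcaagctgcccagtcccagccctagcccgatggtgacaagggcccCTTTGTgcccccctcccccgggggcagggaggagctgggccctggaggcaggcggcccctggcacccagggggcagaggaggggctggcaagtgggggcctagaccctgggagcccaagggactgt
Egr2: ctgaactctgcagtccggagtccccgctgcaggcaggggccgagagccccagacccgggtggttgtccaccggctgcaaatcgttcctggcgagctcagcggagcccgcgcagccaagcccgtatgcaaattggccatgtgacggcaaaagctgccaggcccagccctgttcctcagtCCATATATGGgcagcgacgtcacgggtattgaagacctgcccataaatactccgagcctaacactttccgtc
Prx: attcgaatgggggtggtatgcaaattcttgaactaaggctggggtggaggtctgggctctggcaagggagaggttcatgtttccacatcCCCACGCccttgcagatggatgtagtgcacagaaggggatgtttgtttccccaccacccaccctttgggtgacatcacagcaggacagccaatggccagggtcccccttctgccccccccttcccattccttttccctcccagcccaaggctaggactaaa
Cnp: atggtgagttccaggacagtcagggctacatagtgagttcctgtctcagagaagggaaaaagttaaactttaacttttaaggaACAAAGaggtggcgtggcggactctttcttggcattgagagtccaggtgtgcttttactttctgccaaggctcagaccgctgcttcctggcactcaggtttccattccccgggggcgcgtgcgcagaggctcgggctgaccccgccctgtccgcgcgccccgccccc

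The windows of Mag and Cnp each held 1 SOX motif, on the opposite strand in Mag (126 to 121 bases before the start) and on the gene's strand in Cnp (167 to 162). Of 32851 promoters of this length 29.6% held a SOX motif. The window of Prx held 1 EGR core on the opposite strand (161 to 155 bases before the start), as did 10.3% of all promoters in either orientation. The CArG box lay in the window of Egr2, 72 to 63 bases before the start, and in 1.47% of all promoters. No match to these 3 motifs lay in the windows of Pmp22, Ncmap and Mal, which says only that these letters are not there. Pmp22 has 4 start sites in the RefSeq table, Egr2 has 5 and Mag has 3, and the counts do not tell which was used.

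The base composition of transcripts moved with the direction of change in these libraries. In the 10 equal groups of protein-coding genes by GC content of their transcripts, the median log2 fold change went from 0.31 in the group with the lowest GC content (median 40.8%) to -0.31 in the group with the highest (60.1%). The 8 myelin genes lay in the upper part of this range, from 51.4% GC in Egr2 and 51.9% in Mal to 57.8% in Mag and 58.2% in Prx. Set beside the median of their own GC group, 7 of the 8 lay above it. Egr2 stood 0.38 above on the log2 scale, Ncmap 0.28, Pmp22 0.25, Cnp 0.19, Prx 0.14, Mal 0.12 and Mbp 0.03. Mag alone stood below, by -0.12.

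**Figure D2:**
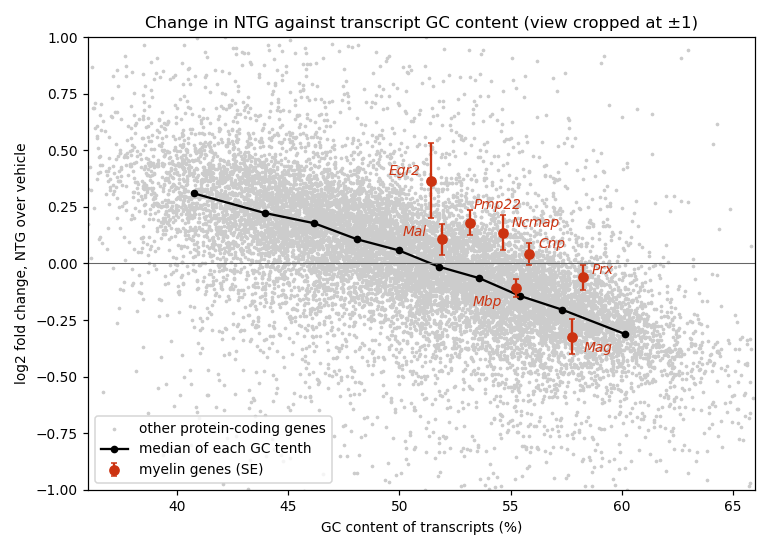
Log2 fold change in NTG over vehicle (y axis, cropped) against the GC content of transcripts in percent (x axis), with protein-coding genes in grey, the median of each of 10 GC groups in black and the 8 myelin genes in red with SE. The black line falls from 0.31 to -0.31, and 7 of the 8 myelin genes sit above it while Mag sits below.

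When each library's smooth trend over GC content and log2 length was removed, here called the composition adjustment, 9.16% of 16071 genes passed (4.1% upwards and 5.06% downwards), and of the 8 myelin genes only Cnp did. Cnp then rose by 0.21 ± 0.04 on the log2 scale (SE, adjusted p by limma = 0.00140), and passed with each library left out in turn (0.000535 to 0.0269). Dnajc7, which overlaps it, stood at 0.29 ± 0.05 after the same adjustment (limma adjusted p = 0.000413). Drp2 did not pass after it (0.26, limma adjusted p = 0.0778). Mag moved to -0.09 ± 0.12 (limma adjusted p = 0.715) and Mbp to 0.04 ± 0.03 (0.456). Pmp22 stood at 0.25 ± 0.07 (limma adjusted p = 0.080). It passed after this adjustment without vehicle replicate 1 (0.0375), vehicle replicate 3 (0.0217) or NTG replicate 3 (0.00103). Egr2 stood at 0.38 ± 0.18 (limma adjusted p = 0.296), Ncmap at 0.26 ± 0.09 (0.139), Prx at 0.18 ± 0.11 (0.423) and Mal at 0.13 ± 0.07 (0.301). In all, 7 of the 8 had a log2 fold change above 0, as did 8579 of the 16071 genes so adjusted. The median of the 8 was 0.20, against 0.01 over those genes. The 8 genes share the same libraries and are not independent of each other.

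The transcripts assumed for a gene mattered in this adjustment. With GC content and length of the principal transcript in place of medians over a gene's transcripts, Pmp22 stood at 0.10 (limma adjusted p = 0.193) and Mbp at 0.20 (0.208). Cnp passed again (0.22, limma adjusted p = 0.00106), as 9.2% of genes did (4.14% upwards and 5.05% downwards).

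**Figure D3:**
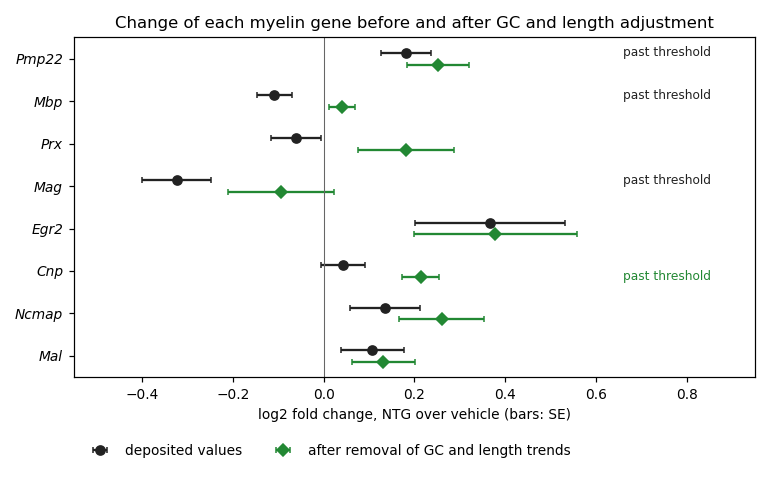
Log2 fold change in NTG over vehicle with SE (x axis) for each myelin gene (y axis), from the deposited values in black and after removal of GC and length trends in green. Pmp22, Mbp and Mag pass the threshold before the adjustment and Cnp after it, and Mag moves from -0.32 to -0.09.

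The genes differed in how they varied from library to library. Mag and Mbp had Pearson's r = 0.94 over the 6 libraries, as a description of libraries that share depth and scaling. Each r given here was taken over both groups together, so a difference between the groups enters it. In vehicle, Mag and Mbp were both highest in replicate 1 and lowest in replicate 2. In NTG, replicate 1 was the highest library for Mag and the lowest for Mbp. Ncmap and Mal (r = 0.90), Pmp22 and Mal (0.86), Egr2 and Ncmap (0.84), Pmp22 and Cnp (0.82) and Pmp22 and Ncmap (0.81) were the other pairs above 0.8. The 5 genes of those pairs did not all vary together, since Egr2 and Cnp (0.33), Cnp and Ncmap (0.43), Cnp and Mal (0.55) and Egr2 and Mal (0.59) were lower. For Mag and Egr2, r was -0.64. Within each library, Mag relative to Pmp22 on the log2 scale was -3.71, -3.97 and -3.75 in vehicle and -4.30, -4.36 and -4.28 in NTG. The mean difference between the groups was -0.50. As the 2 genes were set side by side after they had been called in opposite directions, this is a description, and a scaling common to all genes of a library leaves it as it is while an adjustment for each gene's GC content does not.

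Single libraries stood out across the set. Vehicle replicate 3 was the lowest vehicle library for 5 of the 8 (Pmp22, Prx, Egr2, Ncmap and Mal), and the lowest for 33.5% of all genes tested. NTG replicate 3 was the lowest NTG library for 6 of the 8 (all but Mbp and Egr2), and the lowest for 33.4% of all genes. In no gene of the 8 was either of these libraries the highest of its group. Among all genes tested, vehicle replicate 3 was the highest of its group for 34.8% and NTG replicate 3 for 36.6%. As several of the 8 varied together, they do not count as separate observations. Of 13864 other genes considered, those whose profile over the 6 libraries was most like the mean profile of the 8 were Ncor1 (r = 0.997), Aplp2 (0.990), Ptpn11 (0.988), Efhd1 (0.986), H2-DMb1 (0.985) and Lcp2 (0.983). As these 6 were picked for that likeness, their dips in replicates 3 and their small group differences follow from the choice. Their log2 fold changes lay between 0.00 and 0.11 with limma adjusted p from 0.753 to 0.953.

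Some markers of oligodendrocytes, which could enter with the central end of the root, fell as Mag and Mbp did. Of 12 listed, 11 were tested and none was at 0 in any library. Of the 11, 5 fell, 0 rose and 6 did not pass, against 13.5% of all genes falling and 12.3% rising, with a median log2 fold change of -0.41. Myrf, the oligodendrocyte myelin regulator, fell from 539.9 ± 46.7 to 369.8 ± 25.9 normalised reads (-0.54 ± 0.10 on the log2 scale, adjusted p = 0.000466 by limma). Cldn11, which encodes the tight junction protein of central myelin, fell from 724 ± 64.0 to 543 ± 19.8, and Hapln2, a central node gene, from 437 ± 83.7 to 292 ± 30.4. The number that fell was 3 without vehicle replicate 1, vehicle replicate 3 or NTG replicate 1, 4 without NTG replicate 2 or NTG replicate 3, and 6 without vehicle replicate 2.

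The summed level of these 11 markers was 428, 288 and 391 CPM in vehicle and 285, 310.4 and 296 CPM in NTG. Vehicle replicate 1, the highest in this sum, was also the highest in Mag and Mbp, and vehicle replicate 2 was within the NTG range of the sum while its Mag and Mbp values lay above all NTG libraries. Without Mobp, the most abundant of the 11, the sum was 147, 110.5 and 136 CPM in vehicle. It was 94.3, 104 and 97.1 CPM in NTG, so that every vehicle library lay above every NTG library. Mobp was left out after the data were seen, so this separation is only a description. Single genes whose groups did not overlap made up 39.7% of all genes tested, and this sum was not adjusted for GC content. Mobp itself stood at 5763, 3699 and 5282 normalised reads in vehicle and 3854, 4233 and 4104 in NTG, with a log2 fold change of -0.25 ± 0.19 (SE, adjusted p by limma = 0.412). Cnp and Mal, which oligodendrocytes also express, stood at 0.04 and 0.11 on that scale. After the composition adjustment 2 of the 11 fell, against 5.06% of all genes, with a median of -0.29. They were Cldn11 (-0.42, limma adjusted p = 0.00161) and Ermn (-0.45, 0.0444), and on principal transcripts 1 of the 11 fell. Before the adjustment Ermn stood at -0.09 and did not pass (limma adjusted p = 0.719). Myrf (-0.29, limma adjusted p = 0.0597) and Hapln2 (-0.29, 0.225) did not pass after the adjustment. The part of oligodendrocyte RNA in the changes of Mag and Mbp was not tested.

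**Figure D4:**
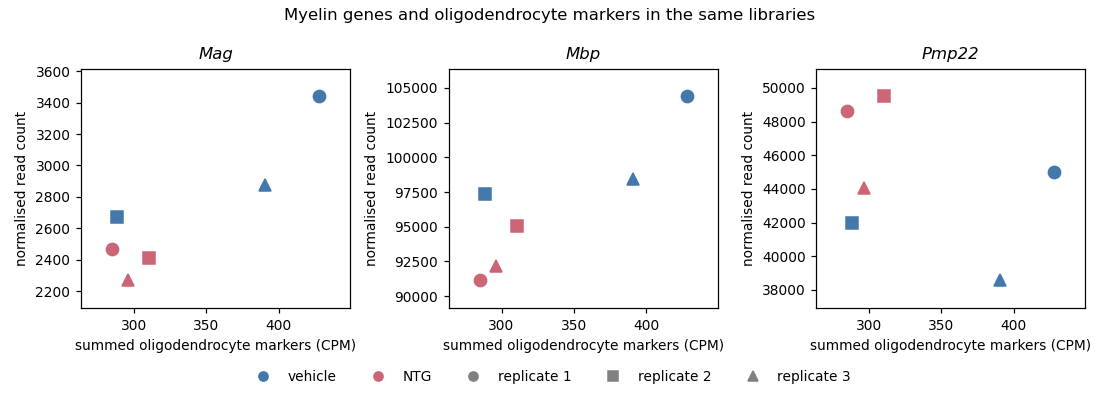
Normalised read counts of Mag, Mbp and Pmp22 (y axes, not from 0) against the summed level of 11 oligodendrocyte markers in CPM (x axes) in each library, with vehicle in blue, NTG in red and a marker for each replicate number. Vehicle replicate 1, at 428 CPM, is highest in Mag and Mbp, and the 3 NTG libraries lie between 285 and 310.4 CPM.

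Other structural genes of the sheath changed in both directions. Of 18 tested, 5 rose and 3 fell, against 12.3% and 13.5% of all genes, with a median log2 fold change of -0.03. Cadm4, which encodes the glial adhesion molecule that holds the internode to the axon, fell from 8432 ± 450.0 to 6045 ± 176 normalised reads (-0.48 ± 0.05 on the log2 scale, adjusted p = 4.13e-06 by limma) and passed after the composition adjustment (-0.18, 0.0114). The tetraspanin gene Cd9 rose from 10253 ± 346 to 12129 ± 272 and the junction scaffold gene Tjp1 from 1814 ± 142 to 2289 ± 155, and of these 2 only Tjp1 passed after the adjustment (0.19, limma adjusted p = 0.0446). After it, 2 of the 18 rose and 2 fell, against 4.1% and 5.06% of all genes. From the deposited values the total of calls was 8, and it was 5 without vehicle replicate 2, 4 without NTG replicate 1 and 4 without NTG replicate 2.

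Among genes of myelin lipids, most of which encode enzymes, 2 of 15 rose and 2 fell, near the 12.3% and 13.5% of all genes. Ugt8a, which makes galactosylceramide, rose from 2529 ± 241 to 3029 ± 242 normalised reads, while Gal3st1, which sulphates that lipid to sulphatide, fell from 958 ± 85.8 to 716 ± 30.6. Fasn, the fatty acid synthase gene, fell from 11445 ± 746 to 9453 ± 549. None of these 3 passed after the composition adjustment, in which 0 of 15 rose and 1 fell. Without NTG replicate 1 or NTG replicate 2 the deposited values gave 2 calls each instead of 4.

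Among regulators of the Schwann lineage 7 of 18 fell and 2 rose, against 13.5% and 12.3% of all genes. Their median log2 fold change was -0.06, and the total of calls was 8 or 9 with each library left out. Sox10, which acts with EGR2 on myelin genes, fell from 5857 ± 429 to 4202 ± 55.6 normalised reads (-0.48 ± 0.06 on the log2 scale, adjusted p = 9.20e-06 by limma). These bulk libraries do not tell in which cells Sox10 changed. Sox2 and Jun, brakes on myelination that Schwann cells re-express after injury and that other ganglion cells also express, fell from 619.9 ± 21.9 to 367 ± 33.7 and from 4340 ± 123 to 3101 ± 126. Pou3f1, a promyelinating factor upstream of Egr2, fell from 680.4 ± 106 to 431 ± 79.4. After the composition adjustment 0 of 18 rose and 3 fell, against 4.1% and 5.06% of all genes. Sox2 (-0.78, limma adjusted p = 6.53e-06) and Jun (-0.33, 9.53e-05) were among these, whereas Sox10 (-0.11, 0.136) and Pou3f1 (-0.22, 0.354) did not pass.

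Among signals and receptors that start myelination, 6 of 20 rose and 1 fell, against 12.3% and 13.5% of all genes, with a median log2 fold change of 0.07. Itgb1, the laminin receptor subunit of Schwann cells, rose from 5178 ± 189.7 to 6382 ± 242 normalised reads, and Lama2, a laminin chain of their basal lamina, from 1707 ± 45.1 to 2058 ± 206. Adam22, the receptor of the secreted Schwann cell protein LGI4, rose from 5293 ± 215 to 6481 ± 206. Lgi4 itself rose from 2638 ± 242 to 3025 ± 57.8, and of these 4 genes it alone passed after the composition adjustment (0.38, limma adjusted p = 0.000658), while on principal transcripts Adam22 passed as well (0.24, 0.000848). The neuregulin receptor gene Erbb3 stood at 2463 ± 117 and 2569 ± 156 and did not pass (limma adjusted p = 0.523). The total of calls was 7 with all libraries, 4 without vehicle replicate 2, 3 without vehicle replicate 3, 3 without NTG replicate 1 and 2 without NTG replicate 2. After the adjustment 1 of 20 rose and 1 fell, near the 4.1% and 5.06% of all genes, and on principal transcripts 2 rose and 1 fell.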

How the data were processed

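Ganglion RNA was captured with poly-T beads for stranded paired-end sequencing, per the labels' protocols. FastQC and HISAT2 were used with GRCm38, per the submitters' processing notes, and the tools for counting and scaling do not appear there. The deposited signal is a gene count divided by a size factor for each library. Divided by the value of 1 read, all of it (100%) was whole within 0.01, so whole reads were recovered.

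Genes reaching a value of 1 in 3 or more libraries were tested on log2(value + 1) by limma-trend (robust, two-sided), with p adjusted by Benjamini-Hochberg over all of them and a threshold of 0.05. Alternatives were the pseudocount, filters, TMM scaling, edgeR, DESeq2 and limma-voom on recovered reads, a minimum fold of 1.2, a replicate block, each library left out, and the composition adjustment (GC and length trends removed with mgcv). GC content and length were medians over GENCODE basic transcripts, known for 92.0% of genes; RefSeq transcript lengths had been planned. The version with principal transcripts and the marker sum without Mobp were chosen after seeing the data. Scripts were tested on simulated data.

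The members, lists and alternatives were chosen with earlier results of these data known. Named genes were the 8 genes, up to 3 of each list with the smallest p, and the 6 most alike in profile. Drp2, Egr1, Mobp, Ermn, Dnajc7, Pou3f1, Lgi4 and Erbb3 were named after their values were seen. No library duplicated another of its group: the chi-square of their counts was 4.10 to 7.99 times its degrees of freedom. Software comprised Python 3.11.15, pandas 2.3.3, R 4.3.3, mgcv 1.9.3, DESeq2 1.42.0, edgeR 4.0.16 and limma 3.58.1.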

Additional observations from a re-analysis of the deposited data

How the results depend on the processing

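Of the 8 myelin genes 3 were called, with 4512 of all genes and 70 list members. Against a minimum fold of 1.2 these counts were 0, 313 and 9. With the composition adjustment they were 1, 1472 and 31, and on principal transcripts 1, 1478 and 30. With each library left out in turn they were 1 to 3, 2946 to 4678 and 44 to 67. Left out after the adjustment (vehicle replicates 1, 2 and 3, then NTG replicates 1, 2 and 3), the 8 gave 2, 3, 2, 1, 1 and 4 calls, all genes 1456, 931, 1497, 1046, 687 and 1079, and list members 29, 29, 31, 27, 20 and 31. With the replicate number as a block they were 5, 5254 and 82, and with block and adjustment 5, 1988 and 41. The labels number the replicates and do not say whether equal numbers pair libraries. Same-numbered deviations from the group means correlated at 0.00, -0.10 and 0.03, and vehicle replicate 1 correlated best with NTG replicate 2. With 3 libraries in a group, these values cannot decide whether equal numbers belong together. After the adjustment Mbp turned to 0.040 (also with the block), 0.20 on principal transcripts, and 0.067, 0.016, 0.033, 0.040, 0.023 and 0.060 with those libraries left out. Prx turned to 0.18 in the first 3 settings, and to 0.24, 0.21, 0.10, 0.12, 0.18 and 0.24; it passed with block and adjustment together (limma adjusted p = 2.40e-05). Mag turned to 0.028 without vehicle replicate 1. The causes were not tested. Other pseudocounts, filters, TMM scaling, edgeR, DESeq2 and limma-voom turned no direction among the 8. The 8 genes had 618 to 106338 reads in each library, and the 3 libraries of a group limit the precision.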

Other observations

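Genes outside the myelin sheath but tied to it also changed. Among 17 genes of the node of Ranvier and its flanks 6 rose and 1 fell, against 12.3% and 13.5% of all genes. After the composition adjustment 5 rose and 0 fell, against 4.1% and 5.06% of all genes, but on principal transcripts 2 rose and 1 fell. Cntn1, which encodes the axonal adhesion molecule of the paranode, rose from 14637 ± 192 to 19249 ± 801 normalised reads (0.39 ± 0.05 on the log2 scale, adjusted p = 6.43e-06 by limma) and passed after the adjustment (0.18, 0.00127). Without NTG replicate 2 the total of calls was 2 instead of 7.

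Among 13 genes of non-myelinating and repair Schwann cells 2 rose and 5 fell, against 12.3% and 13.5% of all genes. After the adjustment 2 rose and 2 fell, against 4.1% and 5.06% of all genes. Scn7a, a sodium channel gene that non-myelinating Schwann cells and neurons express, rose from 7450.0 ± 231 to 10999 ± 440 normalised reads (0.56 ± 0.05 on the log2 scale, adjusted p = 4.62e-07 by limma). Cdh19, a cadherin gene of the Schwann lineage, rose from 872 ± 101 to 1498 ± 92.6 (0.78 ± 0.08, limma adjusted p = 2.88e-06), and both passed after the adjustment. Ngfr, the neurotrophin receptor gene of immature and repair Schwann cells and of neurons, fell from 14988 ± 839 to 12185 ± 769.8 and did not pass after it (limma adjusted p = 0.521). Beside 25.8% of all genes called in either direction, satellite glia markers numbered 2 rises and 3 falls of 10, fibroblast markers 0 and 1 of 6, endothelial markers 1 and 1 of 6, macrophage markers 0 and 1 of 6, neuron markers 2 and 5 of 10, red cell genes 0 and 1 of 5 and skeletal muscle markers 0 and 6 of 8.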
